A study of Rattus norvegicus with 6 samples.

Results

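The ligands of the epidermal growth factor (EGF) receptor, the ERBB receptors and their feedback inhibitor Errfi1 were examined in kidney cortex after 4 weeks of anthraquinone dosing of rats. The 10 genes were listed by name, as Areg, Egf, Ereg, Hbegf, Tgfa and Btc for the ligands, Egfr, Erbb2 and Erbb3 for the receptors, and Errfi1. Their probes were found by accession, and all 10 were present among the genes on the array, with 19 of its 61657 non-control probes. Of these genes, 9 were measured above background. In all, 32669 entries were measured, of which 11825 were genes with a symbol and the rest single probes without one. The members were selected on the measured log2 differences and per-array values of the comparison described here, known from an earlier analysis of the same arrays, so their values are given as a description, without p-values.

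The treated animals were 3 male Sprague-Dawley (Crl:CD(SD)) rats given anthraquinone, a tricyclic quinone, at 1000 mg/kg/day for 4 weeks. The controls were 3 male rats of the same strain given corn oil for 4 weeks. All were 5 weeks old at purchase and were kept on a basal diet. One Cy3-labelled Agilent array was run per animal, and the series set out to compare gene expression in the cortex between the groups.

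EGF family ligands are made as membrane-anchored precursors and are released by metalloproteases such as Adam17. The ligands listed here bind Egfr, and some also bind Erbb4. Erbb2 has no known ligand of its own and acts as the partner in receptor pairs, and Erbb3, whose kinase is weak, binds neuregulins. In the kidney, Egf is made chiefly by the thick ascending limb and the distal convoluted tubule, while amphiregulin (Areg) and Hbegf are known in mice as ligands that injured tubules produce.

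Areg was the member that differed most. It was about 10-fold higher in the anthraquinone rats, in all 3 animals, but by very different amounts. Erbb2 was 1.39-fold lower on its brightest probe. The values of the other 7 measured members overlapped between the groups, and Ereg was not above background on any array. Groups did not overlap in 25.2% of all entries, so lack of overlap alone does not set Areg and Erbb2 apart.

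The promoter windows of Areg and Erbb2 are shown because these were the members whose groups did not overlap. They run from 250 bases before to 50 bases after the annotated start site, from RefSeq on assembly GRCr8, and are read 5′ to 3′ on the strand of the gene. The Areg window is chr14:17265592-17265891 on the minus strand and the Erbb2 window is chr10:83907351-83907650 on the plus strand. Capitals mark motif matches.
Areg: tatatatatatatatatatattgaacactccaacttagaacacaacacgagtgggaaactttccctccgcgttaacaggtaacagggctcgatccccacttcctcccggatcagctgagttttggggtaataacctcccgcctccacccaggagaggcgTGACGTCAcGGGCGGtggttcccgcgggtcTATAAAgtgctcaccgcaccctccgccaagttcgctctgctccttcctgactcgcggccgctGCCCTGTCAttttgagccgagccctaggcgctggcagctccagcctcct
Erbb2: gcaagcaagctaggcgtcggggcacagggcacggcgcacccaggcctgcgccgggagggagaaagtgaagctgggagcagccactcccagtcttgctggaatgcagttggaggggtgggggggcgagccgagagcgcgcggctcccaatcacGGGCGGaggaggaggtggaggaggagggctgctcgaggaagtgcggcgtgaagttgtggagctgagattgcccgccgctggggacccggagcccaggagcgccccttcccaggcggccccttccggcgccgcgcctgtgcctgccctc

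Motifs were searched on both strands, with overlaps allowed. They were the cAMP response element TGACGTCA, the AP-1 site TGANTCA, the core of the antioxidant response element TGACNNNGC, the TATA box TATAAA and the GC box GGGCGG. The Areg window held a cAMP response element starting 91 bases before the start site, a GC box at 82 bases and a TATA box at 61 bases before it, and an antioxidant response element core on the opposite strand, starting 1 base after it. A cAMP response element stood in 1.83% of the 33469 windows of this length in the table, a TATA box in 14.2%, a GC box in 33.1%, an antioxidant response element core in 12.1% and an AP-1 site in 7.33%. The Erbb2 window held a GC box at 98 bases before the start site and none of the other motifs. Of the 10 members, 8 had a window in the table. The only match among these 8 to the cAMP response element was that of Areg, and an AP-1 match was found in none. The Areg window had a GC content of 56%, against 71.3% for Erbb2 and a median of 51.7% over all windows. A match describes letters in the window and does not show that a factor binds there.

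**Figure D1:**
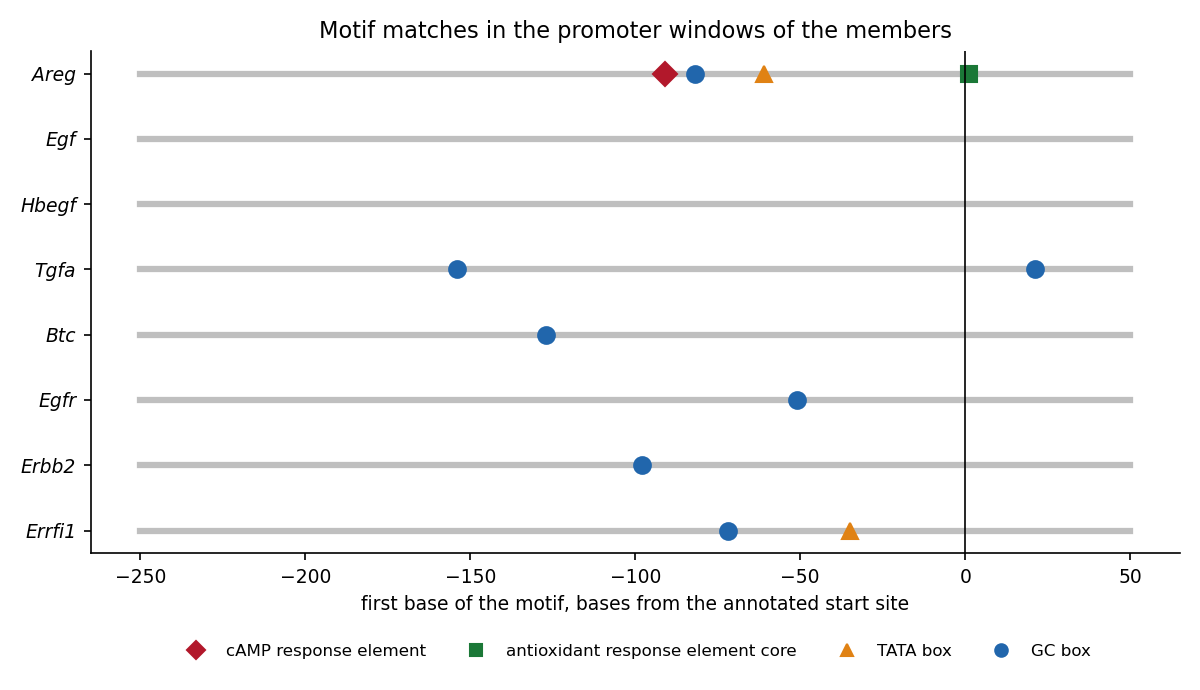
Motif matches in the promoter windows of the 8 members found in the table; the x axis gives the first base of each match in bases from the annotated start site (vertical line), and the grey bars are the windows searched. Areg is the one row with a cAMP response element, and the Egf and Hbegf rows hold no match.

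Levels are given as normalized log2 intensity, the log2 processed intensity minus the 75th percentile of all non-control probes on the same array, so that 0 is the brightness of that percentile. Each gene is described first by its brightest probe. The levels of different probes are not compared with each other, because brightness also depends on the probe. In a bulk tissue, fewer cells of a type and less RNA per cell cannot be told apart. Nothing in the labels says that animals were pooled, and the series' design text calls the replicates biological.

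Among the ligands, Areg stood at 0.21, 0.44 and 2.52 in anthraquinone replicates 1, 2 and 3, against -2.14, -2.17 and -2.65 in corn oil replicates 1, 2 and 3. The lowest anthraquinone animal was 2.35 log2 units above the highest corn oil animal. As processed intensity before scaling, Areg read 1019.6, 1178 and 4851 in the anthraquinone rats and 271, 200.1 and 152 in the corn oil rats, and its probe was well above background on all 6 arrays. Set against the corn oil mean, the anthraquinone animals were 5.79-fold, 6.80-fold and 28.7-fold higher. The group means were 1.06 ± 1.27 with anthraquinone and -2.32 ± 0.29 with corn oil (SD, n = 3 each), a log2 difference of 3.38 ± 0.61 (SE). The SD of the anthraquinone group was 4.44 times that of the corn oil group. The mean difference corresponds to 10.4-fold, and to 6.27-fold without anthraquinone replicate 3.

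The animal with the highest Areg also had the highest Havcr1, the gene of kidney injury molecule 1. Havcr1 read -4.65, -4.15 and -1.48 in anthraquinone replicates 1, 2 and 3, against -4.78, -4.80 and -4.43 in the corn oil rats. Anthraquinone replicate 1 lay within the corn oil range for Havcr1 and replicate 2 just above it, while the Areg of both lay well above the corn oil range. Over all entries Havcr1 did not pass (log2 difference 1.24 ± 0.80, SE, limma adjusted p = 0.466). The summed linear level of the 7 measured markers of injured tubules was 19.2, 26.3 and 47.3 in the anthraquinone rats and 20.3, 27.4 and 34.0 in the corn oil rats, as multiples of the 75th percentile. The log2 differences of these 7 ran from -0.08 to 1.24, with 4 positive, and the groups overlapped for each of them. In anthraquinone replicate 3 the summed level came mostly from the bright probes of Clu and Spp1, at 4.80 and 3.63. Clu, Spp1, Cd44, Lcn2 and, by a narrow margin, Vim were also highest in that animal, while Vcam1 was not. Among these markers Krt20 was not well above background on any array, and Sox9 had no probe matched to its symbol. The part of these markers in the Areg difference was not tested.

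Ereg, which encodes epiregulin, is the gene next to Areg on rat chromosome 14, and Btc, which encodes betacellulin, lies on the other side of Areg. No protein-coding gene is annotated between them in GRCr8. The Ereg probe was not well above background on any of the 6 arrays, so no fold is given. Its processed intensity was 5.77, 6.28 and 20.04 in anthraquinone replicates 1, 2 and 3 and 5.72, 3.78 and 3.97 in the corn oil rats. Anthraquinone replicate 3 had the brightest value, as it did for Areg, but a probe not above background gives only a bound. Btc was dim but above background on all arrays, at -3.63, -4.00 and -4.33 in the anthraquinone rats and -3.82, -4.24 and -3.62 in the corn oil rats. Its groups overlapped, with a log2 difference of -0.09 ± 0.23 (SE), and a second probe gave 0.10 ± 0.18, so its direction was not settled.

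Egf, the ligand of the distal nephron, read 5.08, 5.03 and 4.91 in the anthraquinone rats, against 5.22, 5.02 and 5.42 in the corn oil rats. The groups overlapped, since corn oil replicate 2 lay between the anthraquinone animals. They did not overlap with quantile normalization, with cyclic loess or with the mean of the Egf probes, where the log2 difference was -0.32, -0.33 and -0.25. The log2 difference was -0.21 ± 0.12 (SE), and -0.11 without corn oil replicate 3. On a second, dimmer probe the groups did not overlap, with 2.78, 2.84 and 2.72 in the anthraquinone rats, 3.02, 2.89 and 3.29 in the corn oil rats and a difference of -0.29 ± 0.12. Both probes thus leaned to lower Egf with anthraquinone, by 1.16-fold and 1.22-fold.

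Markers of the cells that make Egf were measured on the same arrays. The 5 measured markers of the distal convoluted tubule had a median log2 difference of -0.38, with 0 of 5 positive, and their summed level was 22.8, 23.3 and 20.3 in the anthraquinone rats and 25.5, 25.7 and 36.5 in the corn oil rats. Slc12a3, the thiazide-sensitive sodium chloride cotransporter gene of that segment, differed by -0.38 ± 0.17 (SE, limma adjusted p = 0.331), Pvalb was not well above background on any array, and Trpm6 had no probe matched. The 9 measured thick ascending limb markers had a median of -0.16, with a summed level of 587 to 784 in the anthraquinone rats and 687 to 822 in the corn oil rats. Umod, the uromodulin gene of that segment, differed by -0.03 ± 0.19 (SE, limma adjusted p = 0.949), and Slc12a1 had no probe matched. The part of these markers in the Egf values was not tested.

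Hbegf encodes heparin-binding EGF-like growth factor. It read -2.48, -2.41 and -2.00 in anthraquinone replicates 1, 2 and 3 and -2.25, -2.14 and -2.23 in the corn oil rats. Anthraquinone replicates 1 and 2 lay below all corn oil animals and replicate 3 above them, so that the difference of the means was -0.09 ± 0.14 (SE). Without anthraquinone replicate 3 it was -0.24 and the groups no longer overlapped. A second probe gave -0.09 ± 0.13, with the same animal on top. No animal had a difference in Hbegf of the size seen for Areg.

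Tgfa, which encodes transforming growth factor alpha, read -0.66, -0.58 and -0.60 in the anthraquinone rats and -0.77, -0.50 and -0.45 in the corn oil rats. The anthraquinone animals sat inside the corn oil range, and the difference was -0.04 ± 0.10 (SE). A dimmer probe gave -0.35 ± 0.30, also with overlapping groups.

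**Figure D2:**
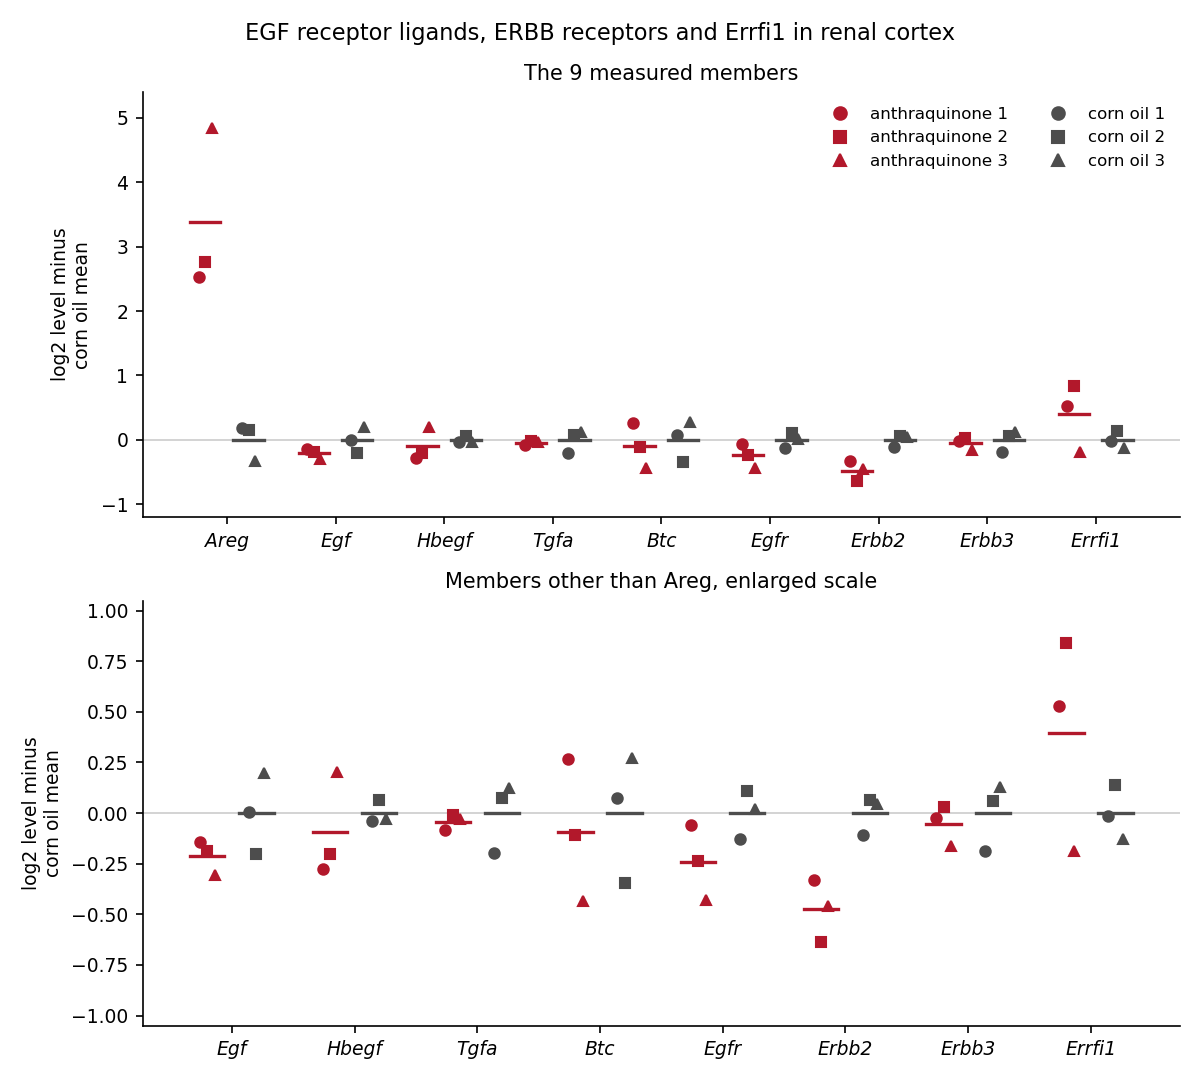
Level of each measured member on every array, as log2 level minus the mean of the corn oil arrays for that probe; points are animals, marker shape is the replicate number, and horizontal bars are group means (n = 3 each). In the upper panel the anthraquinone points of Areg lie between 2.53 and 4.84 log2 units above the corn oil mean. The lower panel leaves Areg out and enlarges the scale, where Erbb2 is the gene whose groups do not overlap.

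Among the receptors, Erbb2 read 1.81, 1.50 and 1.68 in the anthraquinone rats and 2.03, 2.20 and 2.18 in the corn oil rats. All 3 anthraquinone animals lay below all corn oil animals, with a gap of 0.22 log2 units between the nearest animals. The group means were 1.66 ± 0.15 with anthraquinone and 2.14 ± 0.09 with corn oil (SD, n = 3 each), a log2 difference of -0.48 ± 0.11 (SE), which is 1.39-fold lower. Erbb2 had 4 probes. The second brightest, at 1.41, 1.79 and 1.39 in the anthraquinone rats and 1.30, 1.71 and 1.95 in the corn oil rats, gave -0.12 ± 0.19 with overlapping groups. The next, at 0.07, 0.12 and 0.14 in the anthraquinone rats and 0.38, 0.57 and 0.59 in the corn oil rats, gave -0.40 ± 0.08 without overlap. The dimmest, which was above background on 2 of 3 anthraquinone arrays and on all corn oil arrays, gave -0.64 ± 0.27 with overlap. The 4 probes had the same sign but differed in size.

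Egfr, the receptor that binds the ligands above, read 0.49, 0.31 and 0.12 in the anthraquinone rats and 0.42, 0.66 and 0.57 in the corn oil rats. Anthraquinone replicate 3, the animal with the highest Areg, had the lowest Egfr, and replicate 1 lay within the corn oil range. The difference was -0.24 ± 0.12 (SE), and -0.15 without anthraquinone replicate 3. A second probe gave -0.12 ± 0.09 with overlap. Erbb3 read -0.36, -0.31 and -0.50 in the anthraquinone rats and -0.53, -0.28 and -0.21 in the corn oil rats, a difference of -0.05 ± 0.11, with 0.03 ± 0.08 on a second probe.

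Errfi1 encodes MIG6, which binds and blocks the kinase of activated Egfr. It read 6.48, 6.79 and 5.76 in anthraquinone replicates 1, 2 and 3, against 5.93, 6.09 and 5.82 in the corn oil rats. Anthraquinone replicates 1 and 2 lay above all corn oil animals, and replicate 3, which had the highest Areg, lay below them. The difference was 0.40 ± 0.26 (SE). It was 0.69 without anthraquinone replicate 3, when the groups no longer overlapped, and 0.17 without anthraquinone replicate 2. Errfi1 had a single probe, which was not saturated on any array.

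**Figure D3:**
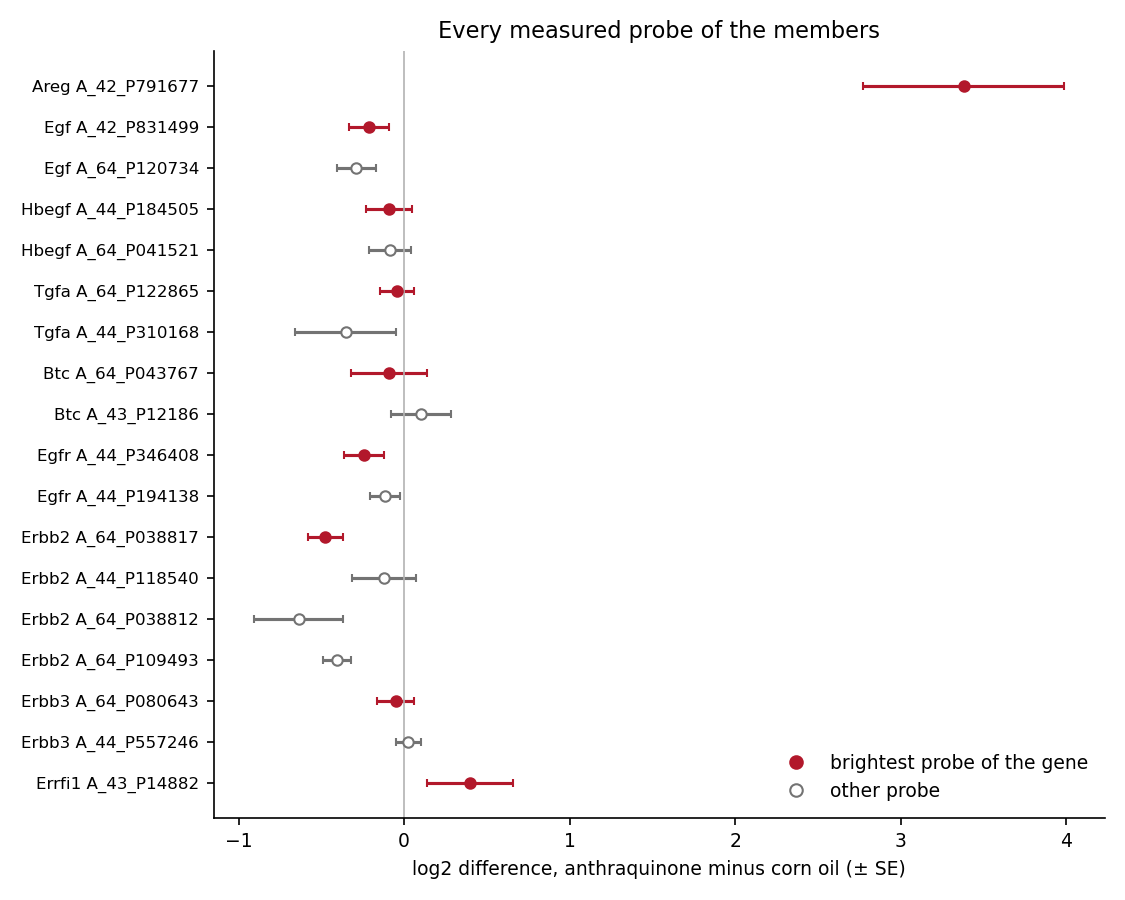
Log2 difference, anthraquinone minus corn oil, of each of the 18 measured probes of the members (points) with its SE (bars) from a fit over all probes; filled points are the brightest probe of a gene and open points its other probes. Areg, at 3.38, lies far to the right of all other probes, the 4 Erbb2 probes lie left of 0, and the probes of Btc and of Erbb3 lie on both sides of it.

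Of the 32669 entries, 9 passed limma's test at a Benjamini-Hochberg adjusted p of 0.05, which is 0.0275% of them (0.0153% higher and 0.0122% lower), and 0 of the 9 measured members did. Of the entries that passed, 5 were higher and 4 lower, and with median scaling 5 were higher and 1 lower. Without the filter on dim probes, 6610 of 49488 entries passed, 6050 higher and 560 lower, with Areg and Erbb2 among them. The members were selected on this comparison, so that does not count in their favour. Before adjustment, 17.1% of all entries and 2 of the members had a p under 0.05. The groups did not overlap in 25.2% of all entries, 14.9% higher and 10.3% lower, and in 2 of the 9 members, Areg higher and Erbb2 lower. Since the list was chosen with this comparison in view, these counts say nothing of the members as a set. Their median log2 difference was -0.09, beside 0.01 over all entries. Leaving out an array can remove overlap but cannot create it. The number of members without overlap was 4 without anthraquinone replicate 3, which added Errfi1 and Hbegf, where 33.1% of all entries did not overlap. It was 5 without corn oil replicate 1, which added Egfr, Erbb3 and Tgfa, where the share of all entries was 37.0%. Corn oil replicate 1 was alone on its slide and had a scan date of its own. Within the slide that held the other 5 arrays, Areg differed by 3.47 and Erbb2 by -0.53. On that slide the corn oil arrays were in row 1 and the anthraquinone arrays in row 2. Group and row cannot be told apart there.

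The remaining genes of the pathway were taken from 5 lists of 115 symbols that hold no member, of which 101 were on the array and 97 were measured. Over all entries 0 of these 97 passed the limma test. At an unadjusted p under 0.05, 8 were higher and 7 lower, 15.5% of the lists against 17.1% of all entries. Groups did not overlap for 15 higher and 9 lower, 24.7% against 25.2%. The shares were thus close to those of all entries.

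The neuregulins are EGF family ligands that bind Erbb3, Erbb4 or both. Nrg1 read 1.74, 2.37 and 2.56 in the anthraquinone rats and 0.52, 1.12 and 0.80 in the corn oil rats. The groups did not overlap, and the difference was 1.41 ± 0.25 on the log2 scale, which is 2.65-fold, but it missed the threshold over all entries (SE, limma adjusted p = 0.157). The other 2 probes of Nrg1 gave 1.18 ± 0.16 and 1.12 ± 0.19. Nrg2 read 1.04, 1.08 and 1.31 in the anthraquinone rats and 0.50, 0.71 and 0.55 in the corn oil rats, a difference of 0.55 ± 0.11 (SE, limma adjusted p = 0.165), on the only one of its 5 probes that passed the background filter. Erbb4, their receptor, differed by 0.11 ± 0.19 and Nrg4 by -0.03 ± 0.10. The 4 measured genes of this list had a median of 0.33.

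The 10 measured genes of ligand shedding had a median of -0.09, with 1 positive value. Adam17, the protease best known for releasing Areg and other EGF receptor ligands, read -1.91, -2.02 and -1.95 in the anthraquinone rats and -1.72, -1.82 and -1.87 in the corn oil rats, a difference of -0.15 ± 0.08 (SE, limma adjusted p = 0.358). It was singled out after its values were seen. The lowest values were those of Nkd2, whose human product guides the Tgfa precursor to the basolateral membrane, at -0.65 ± 0.23 (SE, limma adjusted p = 0.252), and the metalloprotease gene Adam19, at -0.33 ± 0.11. The highest were those of Adam15 at 0.09 ± 0.07 and the rhomboid protease gene Rhbdl2 at -0.01 ± 0.22.

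Adaptors and signal relay genes had a median of 0.00 over 30 measured genes, with a range of -0.43 to 0.17. The lowest was Stat5a, which encodes a transcription factor activated by growth factor and cytokine receptors, at -0.43 ± 0.13 (SE, limma adjusted p = 0.220). The highest were the kinase genes Src at 0.17 ± 0.12 and Map2k2 at 0.15 ± 0.07. The 26 measured negative regulators had a median of 0.06. The highest of those above background on all arrays were Socs3, a feedback inhibitor of cytokine signalling, at 0.45 ± 0.13 (SE, limma adjusted p = 0.213), and the ubiquitin ligase gene Cblc at 0.35 ± 0.18. At the low end were Lrig2 at -0.25 ± 0.13 and Sh3kbp1, whose product links Cbl proteins to receptor endocytosis, at -0.24 ± 0.09.

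The 27 measured genes of ERK output and immediate early response had a median of 0.09, with 20 positive values. Myc, the growth-promoting transcription factor gene, read 0.05, 0.63 and 0.84 in the anthraquinone rats and -0.59, -0.14 and -0.94 in the corn oil rats, a difference of 1.06 ± 0.27 (SE, limma adjusted p = 0.197) without overlap. Maff, a small MAF transcription factor gene, differed by 0.86 ± 0.26. Etv5, an ETS factor gene known to respond to ERK signalling, had lower values, with 2.15, 1.61 and 1.63 in the anthraquinone rats and 3.61, 2.94 and 2.72 in the corn oil rats, a difference of -1.29 ± 0.27 (SE, limma adjusted p = 0.182). A dimmer probe of Etv5 gave -0.21 ± 0.08, so the size of its difference was not settled. Fos differed by -0.61 ± 0.33. Genes of this list thus lay on both sides of 0, and none passed the test.

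**Figure D4:**
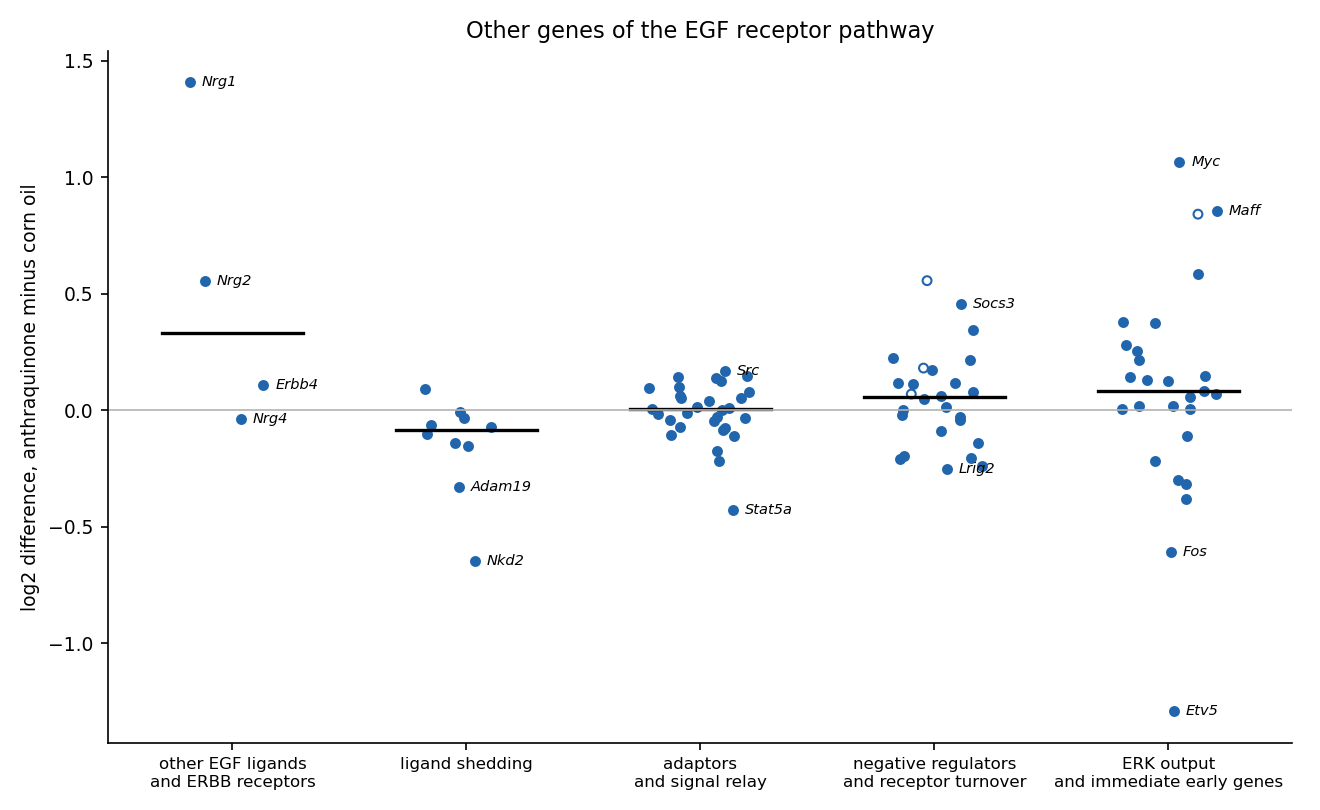
Log2 difference, anthraquinone minus corn oil, of the 97 measured genes in the 5 pathway lists (points; open where the probe was not above background on all 6 arrays) with each list's median (bars). Most points lie near 0, with Nrg1 and Myc at 1.41 and 1.06 at the top and Etv5 at -1.29 at the bottom.

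**Figure D5:**
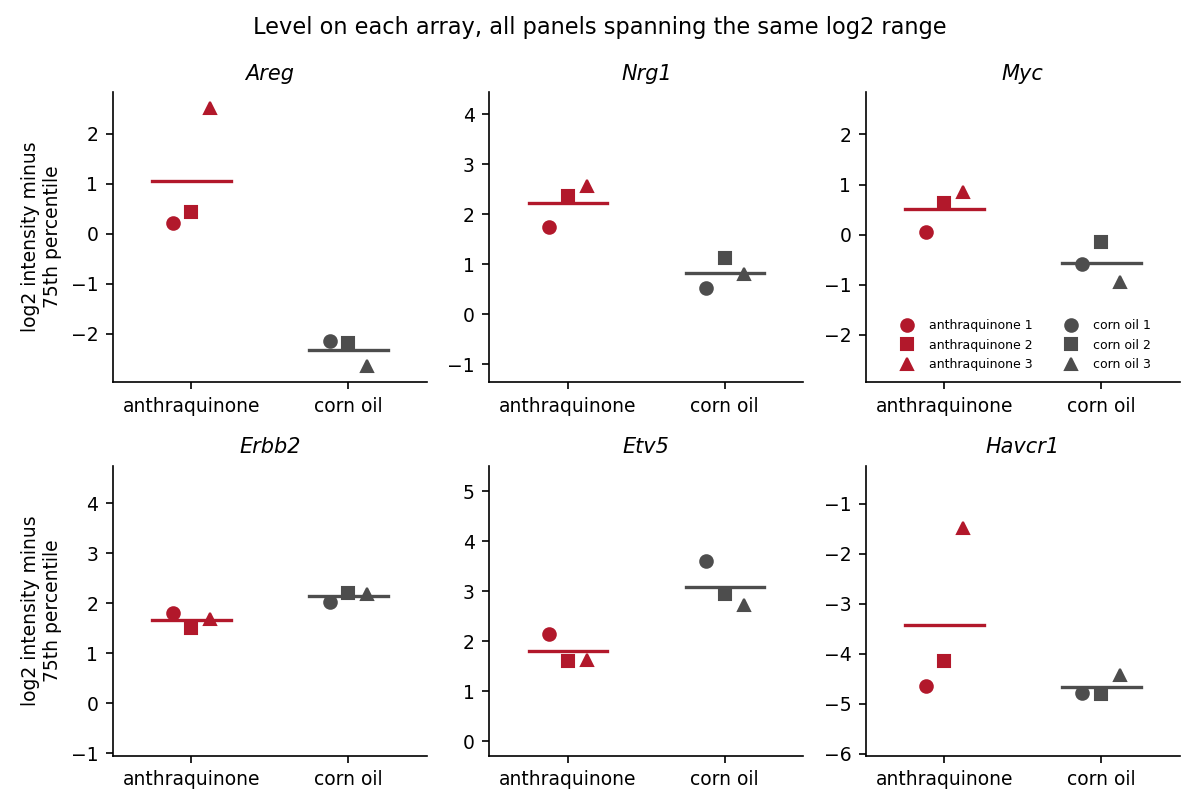
Normalized log2 intensity on each array for Areg, Nrg1, Myc, Erbb2, Etv5 and Havcr1; points are animals, marker shape is the replicate number, bars are group means (n = 3 each), and every panel spans the same log2 range. The groups do not overlap for 5 of these genes, and for Havcr1 anthraquinone replicate 3 stands alone at -1.48. Nrg1, Myc and Etv5 are extremes of their lists, so this count says nothing of the pathway. Over all entries the groups do not overlap in 25.2%.

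The genes whose pattern over the 6 arrays was most like that of 3 members were found by Pearson correlation among 11225 genes above background on all arrays. For Areg they included the cyclin-dependent kinase inhibitor gene Cdkn1b (r = 0.995), whose own log2 difference was 0.20, far smaller than that of Areg. For Egf they were Dnajb5 and Sh2b1 (r = 0.993 and 0.992), and for Egfr the water channel gene Aqp2 and Poc5 (both r = 0.994). The 6 arrays form the 2 groups, and among so many genes high values are common, so these are descriptions and carry no p.

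Tissue and array checks were as follows. The 75th percentile of processed intensity was 844 to 880 on anthraquinone arrays and 903 to 1190.1 on corn oil arrays, and 64.2 to 66.1% of probes on anthraquinone arrays and 68.7 to 70.7% on corn oil arrays were well above background. All 10 proximal tubule markers were measured, with a median log2 difference of 0.07, and the phosphate transporter gene Slc34a1 differed by 0.05 ± 0.10. Medians were -0.45 for 7 collecting duct principal cell markers, -0.06 for 6 intercalated cell, -0.12 for 7 podocyte, 0.01 for 7 endothelial, 0.11 for 7 fibroblast and mural cell, 0.10 for 7 macrophage, -0.26 for 5 lymphocyte, -0.08 for 5 inner medulla and 0.19 for 7 injured tubule markers. The principal cell markers differed in direction, from -0.72 to 0.46, with 1 positive. Of the 82 measured markers in 12 lists, 0 passed the limma test over all entries, and 15 had an unadjusted p under 0.05, 18.3% against 17.1% of all entries.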

How the data were processed

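Renal cortex RNA of 3 anthraquinone and 3 corn oil rats was measured on 1-colour Agilent arrays, with groups and replicate numbers from the sample titles. The deposited scanner files hold spot intensity written by Agilent Feature Extraction 10.7.1.1 and corrected there for background and spatial trend, per the file headers; the submitters' processing notes give version 10.7. The array design used rat build rn4, per the file headers. The authors' value table holds intensity divided by each array's 75th percentile, as its match to the scanner values shows (90.7 to 97.0% of probes within 0.01 log2 of 1 constant per array, column medians 0.109 to 0.114); no header states its scale.

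Between 2 and 13 spots per array with outlier flags were left out. The log2 processed intensity minus the array's 75th percentile was used. Probes that every array of either group read as well above background passed (41310), were named by accession through RefSeq GRCr8 (27447 probes, 15278 symbols), and the brightest stood for its gene. Groups were compared with lmFit and eBayes (limma 3.58.1, R 4.3.3), group as the only term, Benjamini-Hochberg over all 32669 entries. The number of arrays limits the precision, and the procedure was tested on simulated data. The normexp correction used median spot signals (offset 50).

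The members, lists and rules were chosen with earlier results of these data known. From each pathway list the 2 highest and 2 lowest genes above background on all arrays were named, and for Areg, Egf and Egfr the 2 genes most alike over the arrays; some genes these rules name are not reported here. Nothing in the labels pairs same-numbered animals. Their deviations correlated at 0.03, -0.06 and -0.01, within the -0.10 to 0.11 of animals with different numbers. With so few arrays this cannot exclude pairing.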

Additional observations from a re-analysis of the deposited data

How the results depend on the processing

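The log2 difference of Areg stayed between 2.65 and 3.80 and that of Erbb2 between -0.55 and -0.39 over 16 alternatives each, which covered scaling, background correction, filter, probe choice, weights, blocks and each array left out. Egf (-0.33 to -0.11), Egfr (-0.33 to -0.15) and Errfi1 (0.17 to 0.69) kept their sign in all 16. Btc (-0.27 to 0.15), Erbb3 (-0.14 to 0.01), Hbegf (-0.24 to 0.00) and Tgfa (-0.20 to 0.02) did not, and Tgfa was -0.20 with the mean of its probes. These 16 are not independent checks. For every member, the filter on all 6 arrays and the replicate block gave the main value. The slide block repeated the run without corn oil replicate 1, and the authors' table holds the same scaling. For Areg and Errfi1, each on a single probe, the mean of probes also gave the main value. The members without overlap numbered 2 to 5 when single arrays were left out, where 32.9 to 39.5% of all entries did not overlap. The number of entries past the test was 9, 6 with median scaling, 16 with normexp (7 higher and 9 lower), 6610 without the filter on dim probes (6050 higher and 560 lower), 80 with a trend and robust prior, 2 with the slide as a block and 1 with the replicate number as a block. It was 1 to 25 with single arrays left out. Leaving out anthraquinone replicate 1, 2 or 3 left 1, 1 and 4 entries, and leaving out 1, 2 or 3 of the corn oil replicates left 2, 1 and 25. Corn oil replicate 1 was alone on its slide and drops out of the fit with the slide as a block, so slide and animal cannot be told apart. The labels link samples of the 2 groups only by a number, and anthraquinone replicate 1 correlated more with corn oil replicate 2 (0.08) than with replicate 1 (0.03). Without the filter, 3 pathway genes (Nrg1, Nrg2 and Etv5) and the members Areg and Erbb2 passed, where 0 of either did under the other settings. The members were selected on this comparison, so their passing is no support for them. Ereg joined Areg and Erbb2 without overlap there, although its probe was never well above background. Without the filter, 32.3% of all entries did not overlap. That setting tests 49488 entries, and the cause of its many calls was not tested. Dim probes such as those of Ereg and Btc are limited by signal over background.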
